A study of Mus musculus with 3 samples.

Results

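Plasmacytoid dendritic cells (pDCs) were sought among 42888 lavage cells of bleomycin-treated mice by a rule on marker genes, and 204 cells met it. A cell was taken when it held at least 2 UMIs (unique molecular identifiers, each 1 captured transcript) summed over Siglech, Ccr9, Klk1 and Cox6a2. It also had to have Lyz2, the macrophage lysozyme gene, under 0.5% of its UMIs and 0 UMIs over Cd3d, Cd3e, Cd3g, Ms4a1 and Fscn1, which mark T cells, B cells and mature dendritic cells (DCs). Of 298 kept cells with 2 or more UMIs of these 4 genes, 79 were removed by the Lyz2 limit and 15 by the exclusion genes. The cells that remained were 75 from the KO DMSO library, 51 from the WT GW5074 library and 78 from the WT DMSO library. The label held for a minority: 72 of the 204 cells carried mostly pDC genes and 131 carried mostly genes of conventional DC 1 (cDC1). Both kinds are described here, the pDC-marker cells in depth.

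All mice had received bleomycin, a drug that damages the lung and leads to fibrosis, through the airway, and cells were taken on day 14. The KO DMSO mice lacked Clec7a, which encodes Dectin-1, a receptor for fungal β-glucan, and their label names the solvent DMSO. The WT GW5074 mice were wild type and received GW5074, which inhibits protein kinases, and the WT DMSO mice were wild type with DMSO. Lavage fluid was pooled over the mice of each group and sorted for cells with CD11b or CD11c on their surface, so each group was 1 pooled library, and differences between groups cannot be told apart from differences between pools. The strain, the age and the number of mice were not given in the sources used here. The 3 libraries held 11678 (KO DMSO), 17809 (WT GW5074) and 13504 (WT DMSO) barcodes, every one with at least 500 UMIs. Levels are given as CPM (counts per 1e6 UMIs summed over the cells named), with intervals that cover counting error alone. No p-value was computed, since cells of 1 pool are not replicates. Pairs of libraries shared between 80 and 154 cell barcodes by sequence, and no barcode was a cell of the rule in more than 1 library.

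pDCs are a rare lineage that senses viral nucleic acids in endosomes through TLR7 and TLR9 and can answer with large amounts of type I interferon. The E protein TCF4 (E2-2) sets up and holds their identity, against ID2, which favours conventional DCs, and BCL11A, SPIB, RUNX2 and IRF8 act with it. Resting mouse pDCs carry SIGLEC-H, BST2, LY6C and LY6D, little CD11c and no CD11b, and their RNA keeps traces of a lymphoid past such as Dntt and immunoglobulin heavy chain transcripts. cDC1 are the XCR1- and CLEC9A-bearing DCs that cross-present antigen, and they share IRF8 with pDCs.

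Marker UMIs separated the cells of the rule into the 2 kinds. Each cell was placed by whether it held more UMIs over 34 pDC identity genes, the genes of the rule left out, or over 8 cDC1 markers, with Irf8 in neither list. This split was made after the data had been seen, so the differences between the 2 kinds in these genes describe the split. The 72 pDC-marker cells (20 KO DMSO, 23 WT GW5074, 29 WT DMSO) held a median of 42.5 UMIs of pDC identity genes and 0 of cDC1 markers. The 131 cDC1-marker cells (54 KO DMSO, 28 WT GW5074, 49 WT DMSO) held medians of 5 and 24. The remaining cell, from KO DMSO, held 0 UMIs of both lists, 2 of Cox6a2 and 12 of Lyz2. Few cells lay between: in 68 cells at least 80% of the marker UMIs were pDC genes, in 129 cells at most 40% were, and 6 cells lay between these shares. Of the 72 pDC-marker cells, 5 held fewer than 5 UMIs of pDC identity genes, so their place in the split rests on few molecules.

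**Figure D1:**
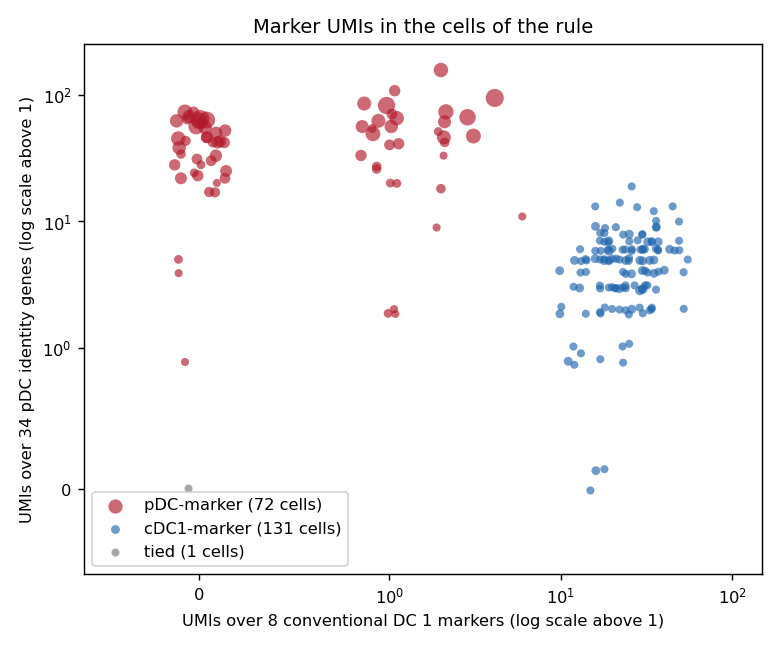
UMIs of 34 pDC identity genes (y axis, log scale above 1) against UMIs of 8 conventional DC 1 markers (x axis, log scale above 1) in each of the 204 cells of the rule, slightly jittered, with a larger point for more UMIs of the rule genes. Most of the 72 pDC-marker cells lie at the upper left, and those with few UMIs of pDC identity genes lie lower. The 131 cDC1-marker cells lie at the right, and 6 cells have between 40% and 80% pDC genes.

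The number of rule UMIs followed the same split. The pDC-marker cells held a median of 7 UMIs of the 4 rule genes and at most 23, and the cDC1-marker cells held a median of 2 and at most 4. Of the 111 cells just inside the rule, with exactly 2 UMIs, 102 were cDC1-marker cells and 8 were pDC-marker cells. Of the 489 cells just outside it, with 1 UMI, 439 held more cDC1 markers, 40 held more pDC genes and 10 held as many of each. Of the 59 cells with at least 4 UMIs, 56 were pDC-marker cells. At the Lyz2 limit, 3 cells of the rule had Lyz2 between 0.4% and 0.5%, and 3 cells that met the UMI minimum lay between 0.5% and 0.6%.

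The rule genes themselves, which chose the cells and are given as a description, were present in different combinations. Siglech encodes a sialic acid-binding receptor of pDCs. It stood at 2033 CPM in the pDC-marker cells, with UMIs in 64 of 72, against 275 CPM in the cDC1-marker cells and 4.13 CPM in the 42684 kept cells outside the rule. A UMI of Siglech was found in 0.411% of cells at or over the Lyz2 limit, where the macrophage gene Lyz2 is abundant and Siglech should be absent (median depth 2998 UMIs, against 1923.5 in the pDC-marker cells). Ccr9, the receptor for the gut and thymus chemokine CCL25, stood at 1006 CPM in the pDC-marker cells, 268 CPM in the cDC1-marker cells and 3.21 CPM outside the rule. Cox6a2 encodes the heart and muscle form of a cytochrome oxidase subunit, and Klk1 a tissue kallikrein. Cox6a2 stood at 870 CPM in the pDC-marker cells (42 of 72 cells) and Klk1 at 278 CPM (16 of 72 cells), and neither had a UMI in the 131 cDC1-marker cells, an upper limit of 6.81 CPM for each. Outside the rule Cox6a2 was at 3.17 CPM and Klk1 at 0.0168 CPM. A UMI of Cox6a2 was found in 0.961% of cells at or over the Lyz2 limit, and in 4 pDC-marker cells it was the only rule gene. All 4 genes were found together in 10 pDC-marker cells, 3 of them in 26, 2 in 21 and 1 in 15. The cDC1-marker cells held Siglech alone in 39, Ccr9 alone in 34 and both in 58.

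Tcf4, which the rule did not use but the split did, stood at 2526 CPM in the pDC-marker cells, 86.7 CPM in the cDC1-marker cells and 94.4 CPM outside the rule. Xcr1 was found in 1 and Clec9a in 8 of the 72 pDC-marker cells. In cDC1-marker cells Xcr1 stood at 415 CPM and Clec9a at 262 CPM. Summed over cells, the pDC-marker cells carried each of the 5 markers of the label, but single cells did not: Klk1 was found in 16 and Tcf4 in 61 of 72. The cDC1-marker cells carried 2 of the rule genes at lower levels, with Tcf4 close to the level outside the rule.

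**Figure D2:**
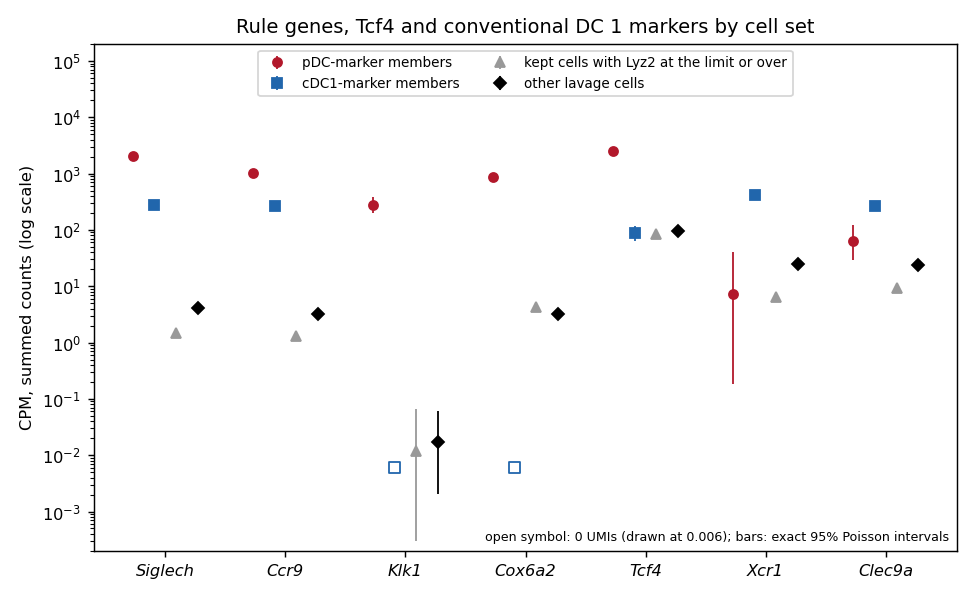
Summed level (y axis, CPM on a log scale) of the 4 rule genes, Tcf4, Xcr1 and Clec9a in pDC-marker cells, cDC1-marker cells, cells over the Lyz2 limit and all kept cells outside the rule, with exact 95% Poisson intervals and open symbols for 0 UMIs. Cox6a2 and Klk1 had no UMI in the cDC1-marker cells and Tcf4 was lower there, whereas Siglech and Ccr9 were present in both kinds. The rule genes chose the cells and Tcf4 was used in the split, so these levels describe the selection.

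In GRCm38, Siglech lies at chr7:55768178-55778925 on the plus strand, Ccr9 at chr9:123678439-123784330 on the plus strand, Klk1 at chr7:44225360-44229618 on the plus strand and Cox6a2 at chr7:128205435-128206387 on the minus strand, all annotated as protein-coding. TCF4 binds E-boxes, and the E-box letters CAGGTG were searched on both strands (CACCTG being the other strand) in RefSeq promoters of the build GRCm38.p6, 250 bases before to 50 after the gene start. RefSeq promoters were at hand for 3 of the 4 rule genes, which the rule itself brought together, and each held the motif. Over all 32851 promoters of 300 bases, 20.2% held it. Capitals mark the motif, which reads CACCTG in Siglech and CAGGTG in Ccr9 and Klk1, in chr7:55767934-55768233 (Siglech, 20 bases before the start), chr9:123766961-123767260 (Ccr9, 85 bases before) and chr7:44225110-44225409 (Klk1, 87 bases before). Starts are those of the RefSeq table, and the one for Ccr9 lies inside the gene span given above, which is from GENCODE.
Siglech: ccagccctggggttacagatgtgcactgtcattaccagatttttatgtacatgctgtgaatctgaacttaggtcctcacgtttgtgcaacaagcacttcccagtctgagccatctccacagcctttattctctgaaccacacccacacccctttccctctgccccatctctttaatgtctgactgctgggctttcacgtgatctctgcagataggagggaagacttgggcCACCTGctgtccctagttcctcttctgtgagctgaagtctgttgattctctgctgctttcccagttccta
Ccr9: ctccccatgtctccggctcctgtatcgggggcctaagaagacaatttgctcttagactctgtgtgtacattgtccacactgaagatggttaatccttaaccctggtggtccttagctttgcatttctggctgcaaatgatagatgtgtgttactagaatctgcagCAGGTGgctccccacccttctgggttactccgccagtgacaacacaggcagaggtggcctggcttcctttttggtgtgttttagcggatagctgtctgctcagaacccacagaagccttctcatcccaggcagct
Klk1: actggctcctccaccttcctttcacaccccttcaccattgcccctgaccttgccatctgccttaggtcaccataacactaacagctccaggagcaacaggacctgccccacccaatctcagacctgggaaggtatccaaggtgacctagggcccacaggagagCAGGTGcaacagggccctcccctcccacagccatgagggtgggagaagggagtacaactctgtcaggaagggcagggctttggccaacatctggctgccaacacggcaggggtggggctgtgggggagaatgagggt
Of the 20 leading genes of the pDC-marker cells named further on, 15 had promoters in the table, and 5 of their 22 promoters (22.7%) held the motif, a share near that of all promoters. The general E-box CANNTG, with any base at N, was found in 14 of these 22 promoters and in 72.3% of all promoters. A match says that these letters are present, not that the factor binds them.

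Siglech and Ccr9 were also measured in cells chosen without the rule genes. Among cells under the Lyz2 limit, 1227 held at least 2 UMIs over Xcr1 and Clec9a. Siglech stood there at 62.8 CPM, with a UMI in 20.9% of cells (95% Clopper-Pearson interval 18.6% to 23.2%, median depth 3696 UMIs). By library it was at 76.8 CPM in KO DMSO, 64.7 CPM in WT GW5074 and 53.2 CPM in WT DMSO. In 7049 cells chosen by the mature DC genes Fscn1, Ccr7 and Ccl22 it stood at 1.69 CPM, with a UMI in 0.340% of cells (median depth 2353 UMIs), and in cells at or over the Lyz2 limit in 0.411% (median depth 2998 UMIs). With every cell thinned to 1000 UMIs, the shares were 5.90% of Xcr1 or Clec9a cells (6 left out as too shallow), 0.106% of mature DC-gene cells (445 left out) and 0.133% of cells over the Lyz2 limit (1293 left out). At equal depth the share in Xcr1 or Clec9a cells was still above both others. Ccr9 was at 46.7 CPM in the Xcr1 or Clec9a cells and 4.02 CPM in the mature DC-gene cells. The 1227 cells held 301 UMIs of Siglech and 224 of Ccr9, but 6 of Cox6a2 and 4 of Klk1, all 4 in 1 cell. The 72 pDC-marker cells held 285, 141, 122 and 39. Of the 1227 cells, 95 (7.74%) were cells of the rule.

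Against cDC1-gated cells without any rule-gene UMI (764 cells), the cDC1-marker cells differed in few genes. A gene was called when it differed at least 2-fold, its counting interval excluded equality and its direction was the same in each of the 3 libraries. Of 6480 genes that entered, 0.694% were called higher (45 genes) and 1.3% lower (84 genes) in the cDC1-marker cells. The highest, Cox15, rested on 10 UMIs against 13, and the lowest, Ifit2, on 1 against 58. Irf8, class II and integrin levels lay close together: Irf8 stood at 1537 CPM in the cDC1-marker cells and 1519 CPM in the cDC1-gated cells, H2-Aa at 8647 and 8181 CPM, and Itgae at 1127 and 1014 CPM.

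As 1 set, the 204 cells of the rule mixed both kinds. Against the other 42684 lavage cells, 8.75% of 8128 genes were higher and 15.3% lower. Against the cDC1-gated cells, 3.98% of 7495 genes were higher and 0.961% lower, against 6873 mature DC-gated cells 20% of 7863 were higher and 14.2% lower, and against 283 B cell-gated cells 10.2% of 8306 were higher and 9.52% lower. The pDC identity list had 28 of 33 members higher with a median log2 ratio of 2.84, and the cDC1 marker list had 8 of 9 higher with a median of 2.76. What follows concerns the 72 pDC-marker cells.

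The pDC-marker cells were shallower than the cDC1-marker cells, with median depths of 1923.5 and 4101 UMIs. Their medians by library were 2278.5 (KO DMSO), 1214 (WT GW5074) and 2184 (WT DMSO) UMIs. Against all other lavage cells, which here means every kept cell but the 72, cDC1-marker cells included, 588 of 3484 genes (16.9%) were higher and 503 (14.4%) lower by the rule above. All of these values describe cells that were chosen on readouts of the same RNA, and the identity genes also made the split. Of the 33 pDC identity genes that entered, 31 were higher, with a median log2 ratio of 4.94 beside 0.21 over all genes that entered. The 2 without a call were Paqr5, with 14 UMIs in the pDC-marker cells and none in KO DMSO, and Ugcg. A cell held a median of 19 of the 35 identity genes, against 4 in the cDC1-marker cells. Thinned to 500 UMIs the medians were 9 and 1.

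Dntt led the list of the 20 highest genes. It encodes terminal deoxynucleotidyl transferase, which adds untemplated bases at antigen receptor joints in lymphoid precursors. It lies at chr19:41029275-41059525 on the plus strand. Dntt had 6 UMIs in KO DMSO (132 CPM), 13 in WT GW5074 (418 CPM) and 30 in WT DMSO (472 CPM) pDC-marker cells, and 5 UMIs in all other lavage cells together. The level was higher by 13.03 on the log2 scale (interval 11.71 to 14.71), and 26 of 72 cells had a UMI. Grm8, a metabotropic glutamate receptor at chr6:27275119-28135178, stood at 484 CPM in KO DMSO, 1094 CPM in WT GW5074 and 786 CPM in WT DMSO, and at 0.352 CPM in other lavage cells, a log2 ratio of 11.07. All 3 libraries were far above the other cells for both genes.

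The next genes by ratio were Sh3bgr (log2 ratio 10.60), Cdh5, which encodes VE-cadherin and is best known from endothelium (10.02, 28 UMIs in 21 cells), the heparan sulfate sulfotransferase Hs3st1 (9.46) and the neuronal calcium sensor Ncald (8.93). They were followed by the C-type lectin Cd209d (8.41), the sodium pump subunit Atp1b1 (8.37), Emid1 (8.34) and Ly6d (8.31). Below these came Pdzd4, the receptor phosphatase Ptprf, the voltage-gated calcium channel Cacna1e, the calcium pump Atp2a1, the phosphatase Ppm1e and the T cell co-receptor chain Cd8b1, from 8.13 down to 7.52. Plac8, a gene abundant in pDCs, was 128-fold higher, and the CD300 family receptor Cd300c (6.93), the thromboxane receptor Tbxa2r (6.93) and the choline dehydrogenase Chdh (6.87) completed the 20. Atp1b1, Ly6d and Cd8b1 are among those of the 20 that also belong to the identity list that made the split. Plac8 was among the most abundant of them, at 1825 CPM in KO DMSO, 2477 CPM in WT GW5074 and 1918 CPM in WT DMSO, against 15.7 CPM in other lavage cells. The 10 lowest included genes that macrophages express, the cathepsin Ctsk (1 UMI, log2 ratio -5.29), the scavenger receptor Olr1 (1 UMI, -5.14), the complement gene C1qb (4 UMIs, -4.61) and the apolipoprotein Apoe (157 CPM in pDC-marker cells, 3381 CPM in the others, -4.43). Atxn1, F7, Wfdc21, Kcnip4, Gda and Sirpb1c made up the rest, with 1 to 3 UMIs each.

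Of 16 transcription factors that entered, 7 were higher and 6 lower, beside 16.9% higher and 14.4% lower of all genes that entered. Tcf4 was at 1891 CPM in KO DMSO, 2220 CPM in WT GW5074 and 3129 CPM in WT DMSO, each far above the 94.4 CPM of other lavage cells (log2 ratio 4.74). Bcl11a, which pDC development requires, was at 985 CPM against 15.6 CPM (5.98), Spib at 193 against 10.3 CPM (4.22) and Runx2, needed for pDCs to leave the bone marrow, at 1206 against 105 CPM (3.52). Irf8, at 1769 CPM in pDC-marker cells and 253 CPM in the others (2.81), was as high in the cDC1-gated cells, at 1519 CPM. The E protein gene Tcf12 (2.79) and Ikzf1 (2.07) were higher too. Id2 stood at 178 CPM in pDC-marker cells, 1553 CPM in cDC1-marker cells and 666 CPM in the others (-1.90). The conventional DC factor Batf3 (-2.48), Spi1 (-1.25), Relb (-1.22) and the myeloid factor Cebpb (-1.86) were among the lower ones. Zbtb46, another conventional DC factor, had 1 UMI and did not enter. Irf7, which drives interferon genes in pDCs, had 8 UMIs and did not enter either.

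The endosomal sensing genes moved little as a list, with 3 of 16 higher, 4 lower and a median log2 ratio of 0.12. The shares over all genes that entered were 16.9% higher and 14.4% lower. Unc93b1, the chaperone that brings nucleic acid-sensing receptors to endosomes, was at 286 CPM in KO DMSO, 836 CPM in WT GW5074 and 519 CPM in WT DMSO, against 220 CPM in other lavage cells (1.22). Slc15a4, an endolysosomal transporter required for pDC responses, was at 157 CPM against 39.0 CPM (2.01), and Pld4, an endosomal nuclease that degrades single-stranded DNA and RNA, at 599 against 221 CPM (1.44). Pld4 also belongs to the identity list that made the split, so its level describes the split. The lower genes were the proteases Ctss (-2.01) and Lgmn (-1.13), the nuclease Pld3 (-1.52) and Irak2 (-1.17). Tlr7 had 10 UMIs, 1 in KO DMSO, 0 in WT GW5074 and 9 in WT DMSO, and was not called. Tlr9 and Myd88 had 0 UMIs in the pDC-marker cells. Tlr9 had 32 UMIs and Myd88 0 in the 42684 kept cells outside the rule, so both were barely counted in any cell of these libraries.

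No interferon transcript was counted in the pDC-marker cells. The 21 interferon genes measured (type I, type III and Ifng) had 0 UMIs among 140162. Against the other lavage cells, 16.9% of all genes that entered were higher and 14.4% lower. Of the interferon response list, 7 of the 12 members that entered were higher and none lower, with a median log2 ratio of 1.37. They were Bst2, the tetherin that pDCs carry at rest (2177 CPM in KO DMSO, 1769 CPM in WT GW5074 and 2312 CPM in WT DMSO, against 209 CPM, log2 ratio 3.36), both chains of the interferon receptor, Ifnar1 (207 against 33.9 CPM, 2.61) and Ifnar2 (571 against 94.3 CPM), and Trim30a (1.84), Ifi203 (1.60), Stat2 (193 against 68.1 CPM) and Slfn8 (1.25). The classic induced genes were nearly empty: Ifit1, Rtp4, Zbp1, Oas1a and Cxcl10 had 0 UMIs, Ifit3 and Oas2 had 1, Rsad2 2 and Isg15 4, and none of these entered.

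**Figure D3:**
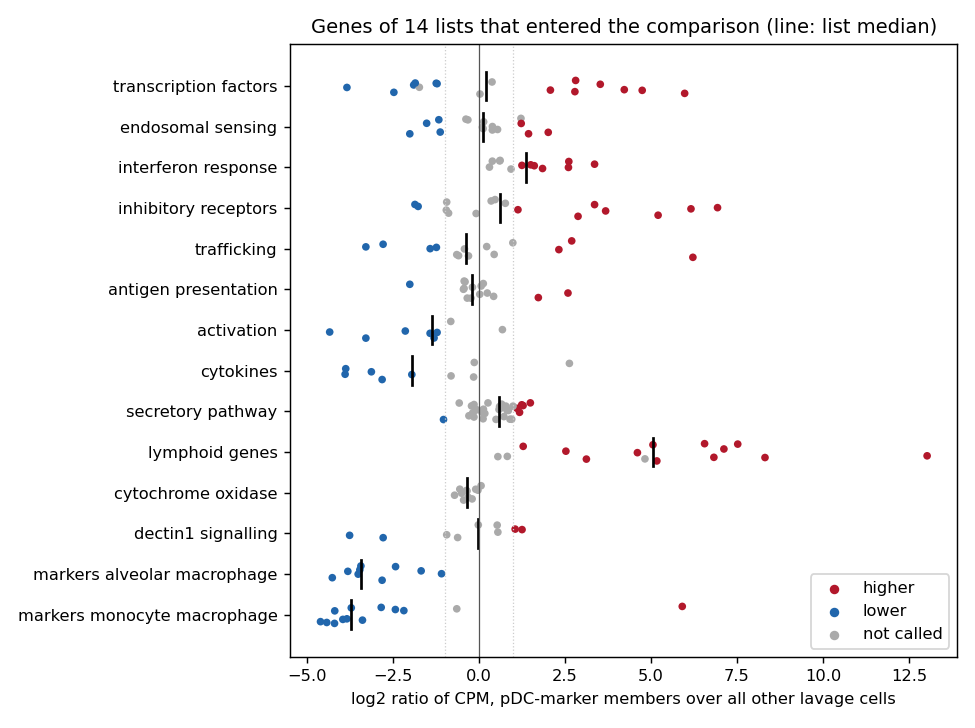
Log2 ratio of CPM in pDC-marker cells over all other lavage cells (x axis) for each gene that entered, by gene list (rows), coloured by call, with a line at the list median. Lymphoid genes and interferon response genes lie to the right, and the alveolar macrophage and monocyte or macrophage markers to the left.

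Receptors that restrain or tune pDCs were among the higher genes, 7 of 16 against 2 lower. Over all genes that entered, 16.9% were higher and 14.4% lower. Lair1, a collagen receptor, was at 892 CPM in pDC-marker cells against 69.6 CPM in the others (log2 ratio 3.68). Ptprs, a phosphatase receptor that dampens pDC activation, was at 328 against 44.7 CPM (2.88), Lag3 at 171 against 4.6 CPM (5.20), Klra17 at 143 against 2.0 CPM (6.16) and Ly9 at 100 against 45.7 CPM (1.13). Tyrobp, the adaptor DAP12 through which SIGLEC-H signals, was at 3439 CPM in pDC-marker cells, 823 CPM in cDC1-marker cells and 2696 CPM in all other lavage cells (0.35), and was not called. The Fc receptor Fcgr2b (-1.77) and the inhibitory receptor Pirb (-1.87) were lower.

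Among 14 trafficking genes 3 were higher and 4 lower, beside 16.9% higher and 14.4% lower of all genes that entered. Itgb7 (2.32), a partner of gut-homing integrins, and the oxysterol receptor Gpr183 (2.69) were among the higher ones, and Ccr7 (-3.29), Cd9 (-2.79), Itgb2 (-1.42) and Itgae (-1.24) were lower. Of the antigens used for the sort, Itgam (CD11b) had 6 UMIs in 3 WT DMSO cells and was called lower (-1.20), and Itgax (CD11c) had 22 UMIs in 19 cells, at 157 CPM against 243 CPM in the others (-0.63), without a call.

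Genes of lymphoid cells had the highest median of the lists, with 12 of 15 higher (16.9% of all genes), none lower (14.4% of all genes) and a median log2 ratio of 5.06. Of these, Ly6d, Blnk, Cd7, Cd8b1 and Ptprcap also belong to the identity list that made the split. Ly6d was at 2089 CPM in KO DMSO, 1351 CPM in WT GW5074 and 1934 CPM in WT DMSO pDC-marker cells, against 5.8 CPM in the other lavage cells and 976 CPM in B cell-gated cells. Ighm, the constant part of the IgM heavy chain, was at 985 CPM in pDC-marker cells against 27.4 CPM (5.17), with UMIs in 58 of 72 cells, and reached 3450 CPM in B cell-gated cells. The lambda constant genes Iglc3 (442 CPM, 7.12) and Iglc2 (143 CPM, 5.06) were higher as well. Iglc2 and Iglc3 are near-identical, so how reads were divided between them is uncertain. Il7r, the receptor for the lymphoid growth factor IL-7, was at 564 against 98.0 CPM (2.52) and the B cell linker Blnk at 428 against 49.2 CPM (3.12). Cd8a (6.56), Cd8b1 (7.52) and Cd7 (6.83) were higher with UMIs in 22, 22 and 23 cells. Ptprcap and Cd37 complete the 12. Rag1, Rag2 and Ptcra had 0 UMIs. Cd3d, Cd3e, Cd3g and Ms4a1 were at 0 by the rule.

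With the libraries pooled, few class II and other antigen presentation genes were called against the other lavage cells, with 2 of 15 higher, 1 lower and a median log2 ratio of -0.19. Of all genes that entered, 16.9% were higher and 14.4% lower. The libraries differed in the antigen presentation genes. Summed, these genes stood at 24690 CPM in KO DMSO, 10294 CPM in WT GW5074 and 12155 CPM in WT DMSO pDC-marker cells. Outside the rule they stood at 24325, 21266 and 19585 CPM in the same order. Against the cDC1-gated cells 10 of 17 were lower and none higher, beside 11.5% lower and 21.6% higher of all genes that entered, with H2-Aa at 1605 CPM in pDC-marker cells and 8181 CPM in cDC1-gated cells. Leaving out Fscn1, which was at 0 by the rule, activation genes were lower than in the other lavage cells in 5 of 7 and higher in none. The lower ones were Ccr7, Cd83 (-2.15), Cd274 (-1.42), Cd80 (-1.31) and Relb, and Cd86 had 11 UMIs, all in 3 KO DMSO cells. Cytokines and chemokines were lower in 5 of 9 and higher in none, led by the macrophage chemokine Ccl9 (-3.90), the mature DC chemokine Ccl22 (-3.88) and Ccl5 (-3.13). For activation and cytokine genes alike, the share of all genes that were lower was 14.4%. Tnf had 1 UMI, and Il6, Il10 and Il12b had 0. Il12a had 7 UMIs in 5 cells (49.9 CPM, against 0.1 CPM in the others), too few to enter.

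Genes of the secretory pathway were higher in 5 of 31 and lower in 1, with 25 not called, a share of higher genes near the 16.9% of all genes that entered. The higher ones were Herpud1 (1.49), Edem2 (1.28), Ssr1 (1.24), Manf (1.18) and Spcs2 (1.10), and Calr was lower (-1.03). Xbp1, the factor that expands the endoplasmic reticulum, was at 264 CPM against 137 CPM (0.95) and did not reach 2-fold. The 11 ubiquitous cytochrome oxidase subunits that entered had no call, with a median log2 ratio of -0.35. Cox6a1, the ubiquitous counterpart of Cox6a2, was at 378 CPM in pDC-marker cells and 516 CPM in the others. Cox6a2 itself was a gene of the rule. Cell cycle genes had 67 UMIs, 43 of them in WT GW5074, and neither gene that entered (Stmn1 and Hmgb2) was called. Mki67 had 8 UMIs and Stmn1 12, in each case all of them in 2 WT GW5074 cells. Of 5 survival genes 2 were lower, Bcl2a1b (-1.58) and Bcl2a1d (-1.05), which belong to a family of near-identical copies. The share of all genes that were lower was 14.4%.

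Of the pathways the study perturbed, the receptor gene Clec7a was nearly absent from the pDC-marker cells, but other members were present. Summed, the Dectin-1 signalling list stood at 2638 CPM in KO DMSO, 2316 CPM in WT GW5074 and 2296 CPM in WT DMSO pDC-marker cells. Outside the rule it stood at 3488, 4074 and 3404 CPM in the same order. Clec7a had 0 UMIs in the KO DMSO, 2 in the WT GW5074 and 2 in the WT DMSO pDC-marker cells, against 10.7 CPM, 648 CPM and 424 CPM in the other cells of the same libraries. The level of Clec7a in KO DMSO checks the label of that library in the other cells, as far as the counted 3' part is affected by the deletion, which the labels do not give. Of 9 Dectin-1 signalling genes that entered, 2 were higher, Plcg2 (1.25) and Vav1 (1.05), and 2 lower, Clec7a (-3.76) and Clec4n (-2.79), while Syk was at 428 CPM against 293 CPM (0.55). Of 10 genes of the MAP kinase pathway and its targets, 3 were lower (Mapk3, Egr1 and Fos) and none higher. Of 10 early glucocorticoid or stress genes, 2 were lower (Dusp1 and Junb) and none higher. In the list of transitional DC genes, Ly6c2 (5.91) and Cd8a were higher and Axl (-3.38), Csf1r (-2.85) and Id2 lower of 9. Beside these counts, 16.9% of all genes that entered were higher and 14.4% lower.

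Markers of other cell types were examined as whole lists, beside 16.9% higher and 14.4% lower of all genes that entered. The alveolar macrophage list summed to 2975 CPM in the pDC-marker cells and 30296 CPM in the other lavage cells, with all 9 members that entered lower, Lyz2 by the rule. Of 13 monocyte or macrophage markers that entered 11 were lower, and the 1 higher was Ly6c2, which pDCs also carry. All 6 mature DC markers that entered were lower, Fscn1 by the rule. Of 5 cDC1 markers 1 was higher (Irf8) and 3 lower, and of 4 cDC2 markers 1 was higher (Cd209d) and 2 lower. The 3 B cell markers that entered (Ly6d, Fcrla and Ralgps2) were higher, and so were the 2 T cell or NK cell markers, Il7r and Cd8a. Summed per library, the B cell list lay between 1769 and 2528 CPM in pDC-marker cells and between 71.8 and 137 CPM outside the rule. Most of this was Ly6d, which also belongs to the identity list that made the split. Ly6d had 260 UMIs in the pDC-marker cells, where the whole B cell list had 115 in KO DMSO, 55 in WT GW5074 and 138 in WT DMSO. The T cell or NK cell list lay between 739 and 1055 CPM in pDC-marker cells and between 124 and 208 CPM outside the rule. Of the 11 B cell markers 3 had 0 UMIs in the pDC-marker cells, and of the 13 T cell or NK cell markers 10 had 0, those of the rule included. The part of other cells in these levels was not tested. No plasma cell marker entered, and the 3 neutrophil markers that entered were not called. Basophil and mast cell markers had 0 UMIs and those of epithelium and red cells 4. Lyz2 was capped by the rule, yet 48 of the 72 cells had a Lyz2 UMI (1006 CPM), against 55.1% of B cell-gated cells (804 CPM). The part that free RNA has in such low levels was not tested.

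The pDC-marker cells were also set against gated cells under the Lyz2 limit that held no rule-gene UMI. Against the cDC1-gated cells, 21.6% of 3334 genes were higher and 11.5% lower, with Ly6d (log2 ratio 11.33), Grm8, Cd8a and Ncald leading, and Atp1b1 at least 605-fold higher by the floor of 3 counts. The cDC1 markers were lower in 8 of 9, with Irf8 the exception. Against the mature DC-gated cells, 27% of 3477 genes were higher and 17.5% lower, with Grm8 (12.70), Ly6d, Cdh5, Dntt and Sh3bgr in front, Dntt being at least 2056-fold higher by the same floor. Against the B cell-gated cells, 14.2% of 3463 genes were higher and 9.04% lower. Grm8 (8.35), Cd8b1 (7.73), the UDP-glucose receptor P2ry14 (7.37), Plxdc1 (6.57) and Tex2 (842 against 9.29 CPM) led there. Among the genes named against the gates, Ly6d, Atp1b1 and Cd8b1 belong to the identity list that made the split.

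The shares of pDC-marker cells did not differ beyond counting error between libraries, with few cells in each. The cells had been sorted for CD11b or CD11c, and resting pDCs carry little CD11c and no CD11b. These are therefore shares of sorted cells, and the part of the sort in them was not tested. The pDC-marker cells made up 0.172% of kept cells in KO DMSO, 0.129% in WT GW5074 and 0.216% in WT DMSO. The ratio to WT DMSO was 0.797 (interval 0.427 to 1.46) for KO DMSO and lay between 0.331 and 1.07 for WT GW5074. The minimum of 2 UMIs depends on depth, and the WT GW5074 pDC-marker cells were the shallowest. Of cells under the Lyz2 limit they were 0.554% in KO DMSO, 0.446% in WT GW5074 and 0.328% in WT DMSO, with ratios to WT DMSO of 1.69 (0.905 to 3.09) and 1.36 (0.751 to 2.43). The direction turned with the denominator: 3613 KO DMSO and 5160 WT GW5074 cells were under the limit, against 8839 of WT DMSO. The cDC1-marker cells made up 0.464% in KO DMSO, 0.157% in WT GW5074 and 0.364% in WT DMSO. The WT GW5074 share was 0.432 times that of WT DMSO (0.261 to 0.701), but 0.979 times (0.592 to 1.59) of cells under the Lyz2 limit. The cDC1 gate, which needs no UMI of the rule genes, held 1.97% of kept cells in KO DMSO, 1.64% in WT GW5074 and 1.81% in WT DMSO. Its cells had median depths of 3690, 2510 and 4512 UMIs, and the part of depth in the lower WT GW5074 share was not tested. All cells of the rule made up 0.644% in KO DMSO, 0.287% in WT GW5074 and 0.580% in WT DMSO. The ratio was 1.11 (0.798 to 1.55) for KO DMSO and 0.494 (0.340 to 0.713) for WT GW5074. Of cells under the Lyz2 limit the ratios were 2.35 (1.69 to 3.27) for KO DMSO and 1.12 (0.771 to 1.61) for WT GW5074, so both calls depended on the denominator.

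**Figure D4:**
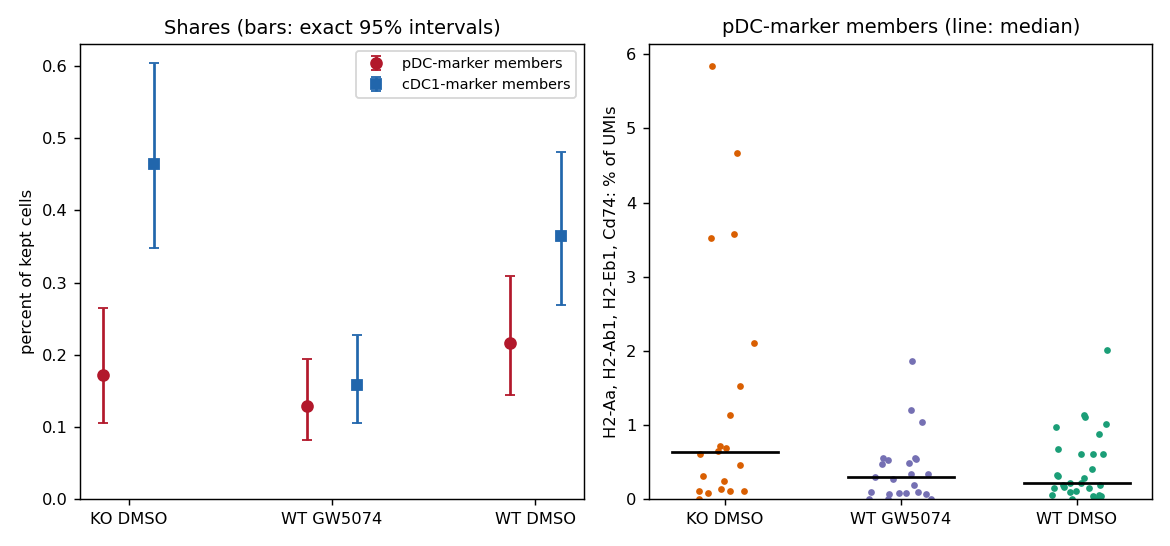
Left, share of kept cells (y axis, percent) that were pDC-marker cells or cDC1-marker cells in each library, with exact 95% intervals. Right, UMIs of H2-Aa, H2-Ab1, H2-Eb1 and Cd74 as a percent of the UMIs of each pDC-marker cell, with medians of 0.628% in KO DMSO, 0.296% in WT GW5074 and 0.216% in WT DMSO, and highest cells at 5.85%, 1.87% and 2.01%.

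Between libraries, genes with at least 20 UMIs over both entered, and a call needed 2-fold and an interval that excluded equality. These calls compare pools of a few cells, not treatments or genotypes, and both comparisons share the WT DMSO cells. For all cells of the rule, 1.83% of 3654 genes were higher and 1.56% lower in WT GW5074 than in WT DMSO, and 2.07% of 4351 were higher and 4.44% lower in KO DMSO. The KO DMSO set held more cDC1-marker cells (54 of 75) and the WT GW5074 set fewer (28 of 51) than WT DMSO (49 of 78), which moves with these values. Among the genes named there, Mapre2 had 15 UMIs in WT GW5074 and 7 in WT DMSO (log2 ratio 2.43), and the chemokine Ccl4 2 and 70 (-3.80). Chrac1 had 17 in KO DMSO and 3 in WT DMSO (2.72), and S100a8 3 and 144 (-5.37). For the pDC-marker cells, 3.14% of 827 genes were higher and 2.9% lower in WT GW5074, and 6.44% of 963 were higher and 5.4% lower in KO DMSO.

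Class II genes were higher in KO DMSO: 4 of the 10 antigen presentation genes that entered were called, all higher, with a list median log2 ratio of 0.66 beside -0.04 over all genes. Of all genes that entered, 6.44% were called higher. H2-Aa had 155 UMIs in KO DMSO, 23 in WT GW5074 and 47 in WT DMSO pDC-marker cells, or 3408, 740 and 739 CPM. H2-Eb1 had 107, 12 and 32 UMIs in the same order, and the invariant chain Cd74 had 360, 60 and 151. The log2 ratios of KO DMSO over WT DMSO were 2.21 (H2-Aa), 1.70 (H2-Ab1), 2.22 (H2-Eb1) and 1.74 (Cd74). A few cells carried much of this: 3 of the 20 KO DMSO cells held 57.9% of its class II UMIs, against 34.8% in the top 3 of 29 WT DMSO cells. These 3 KO DMSO cells held 11, 2 and 9 UMIs of pDC identity genes, against a median of 42.5 in all pDC-marker cells. They held 6, 1 and 2 UMIs of cDC1 markers, so their place among the pDC-marker cells rests on few molecules. Without the 3 highest cells of each library the log2 ratios were 1.70, 1.38, 0.96 and 1.39, so H2-Eb1 fell below 2-fold. In other cells of the same libraries the 4 genes were higher in KO DMSO by less: by 0.24 to 0.53 in cDC1-gated, 0.50 to 0.88 in mature DC-gated and 0.21 to 0.81 in B cell-gated cells. In WT GW5074 none of the 10 genes was called. Cd86 had all of its 11 UMIs in KO DMSO.

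Neutrophil transcripts were highest in WT DMSO, in the pDC-marker cells and in the others alike. S100a8 had 2 UMIs in KO DMSO, 12 in WT GW5074 and 88 in WT DMSO pDC-marker cells, and S100a9 had 1, 3 and 37. UMIs of the 9 neutrophil markers were found in 3 of 20 KO DMSO cells, 1 of 23 WT GW5074 cells and 21 of 29 WT DMSO cells, at 87.9, 515 and 2139 CPM. A single WT DMSO cell held 82 UMIs of S100a8 and S100a9 together, which were 61 of the 88 S100a8 and 21 of the 37 S100a9 UMIs of that library. The 9 markers together had 136 UMIs in the WT DMSO pDC-marker cells. In the other lavage cells the same markers summed to 517 CPM in KO DMSO, 433 CPM in WT GW5074 and 5882 CPM in WT DMSO. S100a8 and S100a9 were called lower in both comparisons, and the part of free neutrophil RNA in the WT DMSO values was not tested.

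In KO DMSO the other named genes were S100a11 (967 CPM in KO DMSO, 225 CPM in WT GW5074 and 189 CPM in WT DMSO) and the adhesion receptor Alcam (528, 290 and 110 CPM), both higher than WT DMSO, and the glutathione reductase Gsr (44.0, 193 and 330 CPM), which was lower. Of 26 pDC identity genes that entered, 1 was higher in KO DMSO (Rpgrip1) and 1 lower (Atp1b1), with a median log2 ratio of -0.42 beside -0.04 over all genes. The shares over all genes were 6.44% higher and 5.4% lower. Dntt was lower in KO DMSO (6 UMIs against 30, log2 ratio -1.84), as was Flt3, the receptor for the DC growth factor FLT3 ligand (5 against 23, -1.72). Siglech, which chose the cells, was at 1407 CPM in KO DMSO, 2348 CPM in WT GW5074 and 2327 CPM in WT DMSO. The KO DMSO interval, 1084 to 1797 CPM, lay below that of WT DMSO, 1967 to 2734 CPM. KO DMSO cells of 2613, 3066, 3215 and 3826 UMIs held 2, 9, 11 and 1 UMIs of pDC identity genes. Their Siglech UMIs were 0, 2, 1 and 0. WT DMSO cells of 1342 and 5364 UMIs held 2 and 5 UMIs of identity genes and 0 of Siglech. The part of such weakly marked cells in the Siglech and identity gene ratios was not tested.

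In WT GW5074 the genes named by the rule of size were Lgals3 (1094 CPM in WT GW5074 and 252 CPM in WT DMSO), Vim (933 and 220 CPM) and Spp1 (708 and 173 CPM), all higher than WT DMSO, and Wfdc17, S100a9 and Cd2ap, all lower. Single cells carried most of these molecules: the top 3 of 23 WT GW5074 cells held 91.2% of the Lgals3, 82.8% of the Vim and 77.3% of the Spp1 UMIs, and 1 of 29 WT DMSO cells held 43 of the 47 Wfdc17 UMIs. The direction of Wfdc17 turned in 3 alternatives that leave out cells, to a log2 ratio of 0.93 at most. Each of these leaves out, among others, the WT DMSO cell of 5364 UMIs. That cell held 5 UMIs of pDC identity genes, 3 of Cox6a2 as its only rule gene, and Lyz2 at 0.41%. Lgals3, Vim and Spp1 are abundant in macrophages, with Spp1 at 7671 CPM in the WT GW5074 cells over the Lyz2 limit. WT GW5074 pDC-marker cells of 2119 and 3944 UMIs held 4 and 2 UMIs of pDC identity genes. Cox6a2 was their only rule gene, and both held 0 UMIs of Tcf4. The part of such weakly marked cells in these ratios was not tested. Of 26 pDC identity genes 1 was higher (Ptprcap) and 1 lower (Pld4) in WT GW5074, with a median log2 ratio of 0.06. The shares over all genes were 3.14% higher and 2.9% lower. None of the 9 transcription factors that entered was called in either comparison.

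**Figure D5:**
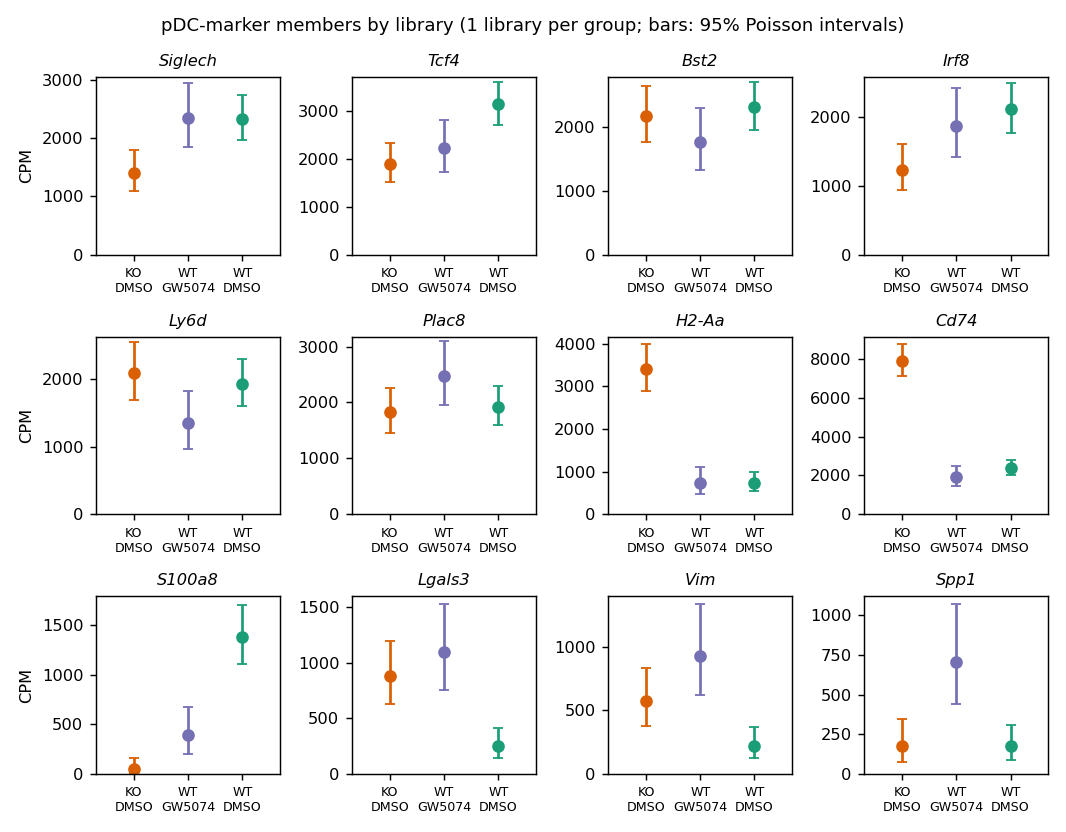
Summed level (y axis, CPM) of 12 genes in the pDC-marker cells of the KO DMSO, WT GW5074 and WT DMSO libraries, with exact 95% Poisson intervals and 1 library per group. H2-Aa and Cd74 are highest in KO DMSO and S100a8 in WT DMSO, while the intervals of Bst2, Ly6d and Plac8 overlap between libraries.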

How the data were processed

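Single-cell RNA was measured in 3 droplet libraries, each of pooled lavage cells sorted by the authors. The deposited matrices hold raw UMI counts per gene and barcode for 32286 genes. Cell Ranger 2.1.1 and the genome mm10 were used, per the submitters' processing notes. The labels' protocols name a SeekOne chip and 3' libraries, while another label names 10x Genomics. Every barcode had at least 500 UMIs, so shallower ones had been removed by the authors. Libraries of 3' ends count molecules irrespective of gene length.

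Barcodes with fewer than 200 genes or with over 20% of UMIs from mitochondrial genes were dropped. No doublet caller was run. The deepest cells were left out as an alternative. Counts were summed over cells and scaled to CPM. Ratios have exact conditional binomial intervals, levels exact Poisson intervals and shares Clopper-Pearson intervals, all at 95% and for counting error alone. A count of 0 in the cells set against was replaced by a floor of 3 counts over the set. Genes entered with at least 10 UMIs observed in, or expected for, the cells described, and between libraries with 20 over both. Scripts were tested on simulated data.

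Named genes were the 20 highest and 10 lowest called against other lavage cells, the 5 highest against each gate, the 3 highest and 3 lowest between libraries, and members of 31 lists. The ranks leave out the 10 genes of the rule (Lyz2 and the exclusion genes included), predicted and sex-linked genes, and those of mitochondria, ribosomes, haemoglobin, immunoglobulins and T cell receptors. The members and lists were chosen with earlier results of these data known. Gene positions are from GENCODE M21 (GRCm38) and promoters from RefSeq. Python 3.11.15, numpy 2.4.6, scipy 1.17.1, pandas 2.3.3 and matplotlib 3.10.9 were used. Some genes are not reported here.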

Additional observations from a re-analysis of the deposited data

Results flagged for a closer look

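The ratio of Il1b, an inflammatory cytokine gene, between pDC-marker cells and the other lavage cells pointed in different directions in the libraries. The log2 ratio was -0.94 in KO DMSO, 1.62 in WT GW5074 and -1.27 in WT DMSO. It rests on 2, 10 and 7 UMIs in the pDC-marker cells of these libraries, and 1 WT GW5074 cell held 8 of its 10. The difference between libraries was not tested.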

How the results depend on the processing

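The split into pDC-marker and cDC1-marker cells and every result for pDC-marker cells alone were chosen after seeing the data. No paired analysis was possible because each group has 1 library and no result comes from a test. The number of cells of the rule, 204, was 93 with at least 3 rule-gene UMIs, 115 with at least 2 of the rule genes, 73 after thinning to 1000 UMIs and 72 for pDC-marker cells alone. In that order the shares of kept cells were 0.223%, 0.309%, 0.178% and 0.172% in KO DMSO, 0.157%, 0.169%, 0.140% and 0.129% in WT GW5074, and 0.290%, 0.364%, 0.321% and 0.216% in WT DMSO. As shares of cells under the Lyz2 limit, all cells of the rule were 2.08%, 0.988% and 0.882% in KO DMSO, WT GW5074 and WT DMSO, and pDC-marker cells 0.554%, 0.446% and 0.328%. For all cells of the rule, the count of lower genes against other cells (1245) was 689 with 3 UMIs and 503 for pDC-marker cells. The count of genes either way against the cDC1 gate (370) was 616 with 3 UMIs, 206 with the minimum UMIs doubled and 1104 for pDC-marker cells, against mature DCs (2690) 1545 for pDC-marker cells, and against B cells (1636) 1080 with 3 UMIs and 804 for pDC-marker cells. Between WT GW5074 and WT DMSO (124) it was 66 with 3 UMIs, 45 with the minimum doubled, 241 with a minimum of 1 UMI and 50 for pDC-marker cells, and between KO DMSO and WT DMSO (283) 138, 127, 452 and 114. For pDC-marker cells, doubling the minimum gave 327 higher and 271 lower genes against other cells (588 and 503), 617 against the cDC1 gate (1104), 872 against mature DCs (1545) and 490 against B cells (804). Between WT GW5074 and WT DMSO the 50 genes became 33 with at least 2 rule genes, 16 with the minimum doubled and 139 with a minimum of 1 UMI. Between KO DMSO and WT DMSO the 114 became 70 with 3 UMIs, 58 with at least 2 rule genes, 43 and 240. A minimum changes how many genes enter, and leaving out cells lowers the UMIs behind each ratio. Leaving out each library in turn, all cells of the rule gave 644 to 674 higher and 1028 to 1204 lower genes against other cells, 299 to 393 against the cDC1 gate, 2343 to 2573 against mature DCs and 1076 to 1810 against B cells. The pDC-marker cells gave 396 to 542 higher, 281 to 410 lower, 668 to 978, 1009 to 1304 and 536 to 763, each lowest without WT DMSO, as was the 1076 against B cells. Wfdc17 in WT GW5074 over WT DMSO pDC-marker cells, called lower at a log2 ratio of -2.94, turned to 0.93 with at least 2 rule genes, 0.85 with Lyz2 under 0.25% and 0.69 without the deepest cells, settings that each leave out cells. Of the ratios of single named genes under the alternatives, 522 kept their sign and stayed inside the main counting interval. A further 44 left that interval, or changed sign where it held equality. The 3 of Wfdc17 changed sign where it excluded equality. With 72 cells and 140162 UMIs, genes under about 10 UMIs could not be described.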
